A study of Mus musculus with 36 samples.

Results

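Voltage-gated ion channels set how neurons fire, and 37 of their genes were followed here in hippocampal slices of ageing mice. The members were taken by symbol from a named list: 8 genes of sodium channels and the sodium leak channel, 16 of potassium channels, 2 of HCN channels and 11 of calcium channels. They are 37 of the 55421 genes in the expression table, and all 37 were among the 19478 genes with enough counts to be tested.

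The study asked how gene activity after induced synaptic plasticity differed with an amyloid transgene and with BD10-2, a compound that partly activates TrkB and TrkC, receptors for neurotrophins. Wild-type mice were C57BL/6. T41B mice (Thy1-hAPPLond/Swe, Line 41) expressed human APP, bearing London and Swedish mutations, from a Thy1 cassette that is active in neurons. Both received vehicle or BD10-2 (labelled PTX-BD10-2) by oral gavage for 3 months, from 13 to 16 months of age. Slices of the right hippocampus were then given theta-burst stimulation (3 trains of 10 bursts, each of 4 stimuli at 100 Hz, with bursts 200 ms apart) or a sham procedure, and were frozen at once. In vehicle-treated mice, wild-type and T41B slices numbered 4 each per procedure. In BD10-2-treated mice there were 3 wild-type and 5 T41B slices per procedure. These 32 samples came from 18 mice, and 14 mice gave both a sham and a stimulated slice.

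Sodium channels open first in an action potential: a large pore-forming alpha subunit (Scn1a, Scn2a, Scn3a, Scn8a) carries the current, and small beta subunits (Scn2b, Scn3b, Scn4b) set its gating and its place in the membrane. Nalcn is a voltage-modulated leak channel that carries a background sodium current. Potassium channels end the action potential and limit repeated firing, HCN channels open when the membrane is hyperpolarized, and calcium channels couple firing to transmitter release and to gene activity.

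Library totals ran from 11597555 to 28125842 expected counts. Every member had at least 15 counts in every sample. Transgene and stimulation labels were checked in each library. Thy1 was 255 to 400 CPM (counts scaled to a common library size) in the 16 wild-type libraries and 880 to 2410 CPM in the 20 T41B libraries, without overlap, and Il1b, an interleukin gene, was at most 3.51 CPM in sham and at least 23.4 CPM in stimulated libraries. The lowest T41B value belonged to 1 of 2 same-label libraries of the stimulated slice of Mouse1592, whose partner was at 1910 CPM. Neuronal markers matched the tissue label: Camk2a was at 2940 CPM or more and Prox1 of dentate granule cells at 75.7 CPM or more in every sample. Choroid plexus marker Ttr exceeded 50 CPM in 6 samples, all of vehicle-treated mice: 2 stimulated wild-type, 2 sham T41B and 2 stimulated T41B slices.

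Promoter sequences are shown for 3 members on which the results turn, a sodium channel subunit and a potassium channel that were lower after theta burst and an HCN channel that was higher. They are RefSeq windows in GRCm38.p6, from 250 bases before to 50 bases after a transcription start, written 5′ to 3′ on the strand of the gene. Capitals mark the Sp1 box GGGCGG on either strand.
Scn2b (chr9:45117626-45117925, plus strand): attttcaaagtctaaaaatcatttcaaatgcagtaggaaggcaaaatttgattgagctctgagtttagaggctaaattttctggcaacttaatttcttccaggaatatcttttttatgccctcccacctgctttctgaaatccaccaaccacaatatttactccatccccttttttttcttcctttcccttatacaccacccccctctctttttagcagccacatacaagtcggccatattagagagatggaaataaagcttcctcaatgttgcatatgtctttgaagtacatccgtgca
Kcna2 (chr3:107101317-107101616, plus strand): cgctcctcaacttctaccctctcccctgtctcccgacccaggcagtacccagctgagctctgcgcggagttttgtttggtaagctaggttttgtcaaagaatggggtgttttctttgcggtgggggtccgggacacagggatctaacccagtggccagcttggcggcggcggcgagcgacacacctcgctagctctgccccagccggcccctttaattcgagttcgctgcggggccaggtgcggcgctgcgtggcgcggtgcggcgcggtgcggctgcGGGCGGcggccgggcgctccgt
Hcn4 (chr9:58822699-58822998, plus strand): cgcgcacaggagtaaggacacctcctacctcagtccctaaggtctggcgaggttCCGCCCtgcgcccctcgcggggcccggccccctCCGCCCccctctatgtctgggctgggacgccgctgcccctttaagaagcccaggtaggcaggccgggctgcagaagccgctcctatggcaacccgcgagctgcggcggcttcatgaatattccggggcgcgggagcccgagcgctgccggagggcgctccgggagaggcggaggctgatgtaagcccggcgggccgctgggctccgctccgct

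The Kcna2 window holds 1 Sp1 box, 29 bases into the transcript, and the Hcn4 window holds 2, which begin 196 and 163 bases before the start on the opposite strand. The Scn2b window holds none and has a GC content of 38.3%, against 66.7% for Kcna2 and 71.7% for Hcn4. Over all 32851 RefSeq windows the median was 52.7%, and 35.7% held an Sp1 box. RefSeq windows were found for 29 of the 37 members, 44 windows in all, and 40.9% of these held the box. Motifs of factors linked to neuronal activity were searched on both strands in the same windows: the AP-1 site TGANTCA, the cAMP response element TGACGTCA and the Egr site GCGTGGGCG. None of the 44 member windows held one of these, and 7.81%, 1.79% and 0.612% of all windows did, in that order. These matches describe the letters of the windows and not the binding of a factor.

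Levels between genes were compared per kilobase of exon, in sham slices of vehicle-treated wild-type mice. Kcnab2, a cytoplasmic beta subunit of Kv1 channels, had the highest level at 100.0 ± 10.6 CPM per kilobase (SD, n = 4). Scn2b followed at 51.8 ± 3.99, and Hcn2 at 44.3 ± 7.95. Scn8a (39.1 ± 0.559), the calcium channel Cacna1e (37.7 ± 3.13) and Scn2a (35.9 ± 1.73) came next, and each of these overlapped its neighbour within 1 SD. Hcn4 was by far the lowest at 0.432 ± 0.11 CPM per kilobase, below Kcnb2 at 3.47 ± 0.515. The remaining members lay between 4.62 and 30.6 CPM per kilobase.

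Members lie in long genes, with a median span of 170 kb against 17.4 kb over the 19441 tested genes with an annotated position, and 23 of the 37 exceed 100 kb. Several lie side by side. Scn3a, Scn2a and Scn1a share a stretch of chromosome 2, with gaps of 53.1 and 503.3 kb. Scn2b and Scn4b are 8.3 kb apart on chromosome 9, Kcna3 and Kcna2 63.1 kb apart on chromosome 3, and Kcna1 and Kcna6 61.9 kb apart on chromosome 6.

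The first comparison asked which channel transcripts differed between stimulated and sham slices. Scn2b, Nalcn and Kcna2 were lower after theta burst in all 4 combinations of genotype and treatment, with changes between -19.1% and -33.2%, and Kcnh1 and Cacnb4 in 3. With the mouse as a block, the calls of Nalcn, Cacnb4, Scn1a and Kcnc2 in BD10-2-treated wild-type mice were not made. Hcn4 was the sole member called higher with libraries scaled over all genes (TMM), in T41B mice of both treatments. A gene was called at a Benjamini-Hochberg adjusted p under 0.05 in edgeR's quasi-likelihood test over all 19478 genes.

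In vehicle-treated wild-type mice 5 of the 37 members fell and none rose, where 4.1% of all genes tested fell and 8.21% rose. In vehicle-treated T41B mice 6 fell and 1 rose, against 9.83% and 11.7% of all genes. In BD10-2-treated wild-type mice 6 fell and none rose, against 2.58% and 6.29%. In BD10-2-treated T41B mice 7 fell and 1 rose, against 9.52% and 13.3%. The share of members that fell was thus 13.5%, 16.2%, 16.2% and 18.9% in the same order, above the share over all genes in each. Because the members were chosen with earlier results of these data known, this difference describes the list and is no test of channel genes as a class. The median log2 fold change of the members was -0.26, -0.10, -0.12 and -0.15, and that of all genes was -0.01, -0.05, -0.01 and -0.04. Of the 37 members 32, 29, 27 and 32 had negative fold changes, where 51.3%, 56.1%, 51.1% and 55.4% of all genes did. With libraries scaled on pan-neuronal markers, which raises the fold changes of all genes, 70.3%, 32.4%, 32.4% and 35.1% of the members were negative, beside 31.5%, 33.5%, 21.6% and 24.5% of all genes. Over the 4 comparisons 9 members fell at least once and 1 rose. In vehicle-treated wild-type mice all 9 choroid plexus markers rose as well, with summed levels of 19.7 to 26.6 CPM in sham and 22 to 1250 CPM in stimulated slices, and their part in the channel results was not tested.

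**Figure D1:**
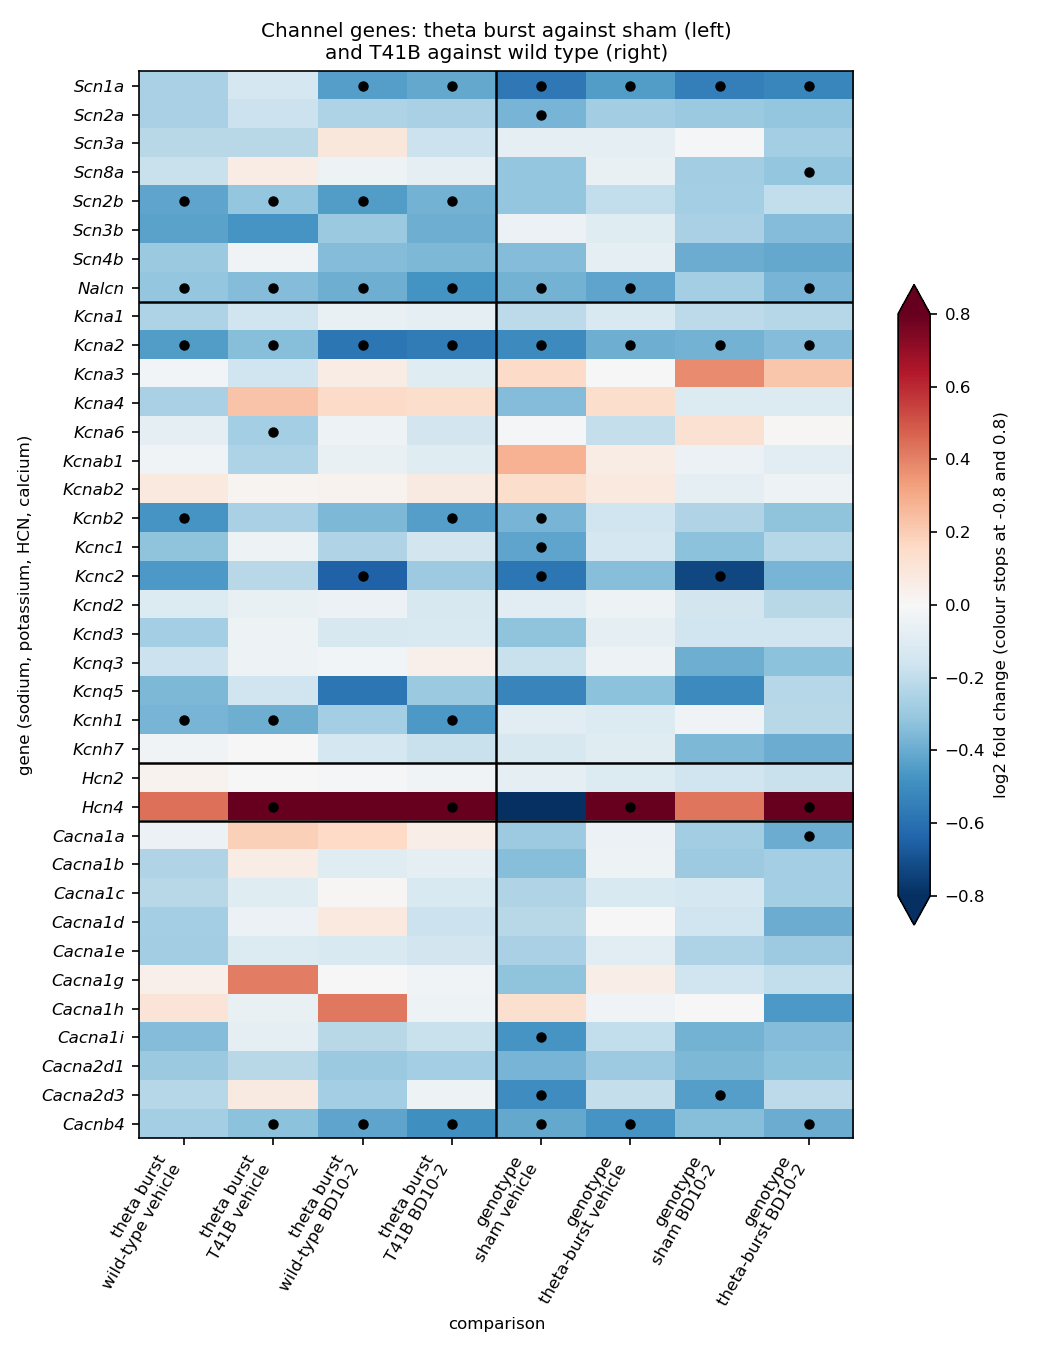
Log2 fold changes of the 37 members (rows, by channel class) in 8 comparisons (columns): theta burst against sham on the left, T41B against wild type on the right. Colour stops at -0.8 and 0.8, and a black dot marks an edgeR adjusted p under 0.05; most cells are blue, the dots gather on Scn1a, Scn2b, Nalcn, Kcna2 and Cacnb4, and Hcn4 is the one gene with red dotted cells.

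Among sodium channel genes, the beta subunit Scn2b (ENSMUSG00000070304, chr9:45117782-45130070, plus strand, GRCm38) was at 248, 215, 245 and 258 CPM in sham slices of vehicle-treated wild-type mice and at 170, 164, 193 and 196 CPM after theta burst. The groups did not overlap, and Scn2b fell by 0.42 on the log2 scale (SE 0.11, adjusted edgeR p 0.00982). In vehicle-treated T41B mice it went from 201, 208, 177 and 194 CPM to 138, 144, 170 and 179 CPM, where 1 stimulated sample passed the lowest sham sample. That fall was 0.31 (SE 0.11, adjusted edgeR p 0.0417). With BD10-2 the wild-type values were 224, 216 and 243 CPM against 161, 153 and 184 CPM, a log2 fold change of -0.45 (SE 0.12, adjusted edgeR p 0.0195). T41B values were 189, 172, 161, 218 and 205 CPM against 131, 118, 150, 147 and 176 CPM, which overlapped, with a change of -0.38 (SE 0.10, adjusted edgeR p 0.00396). Within mice, Scn2b was lower in the stimulated slice of 14 of 14.

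Nalcn (ENSMUSG00000000197, chr14:123276634-123627144, minus strand) was called in all 4 comparisons as well. Sham slices of vehicle-treated wild-type mice had 109, 113, 115 and 113 CPM and stimulated slices 90.1, 86.7, 97.3 and 87.8 CPM, without overlap. T41B mice on vehicle had 99.8, 81.2, 70.3 and 95.1 CPM against 66.6, 58.1, 73.9 and 72.2 CPM, with overlap. The BD10-2 groups did not overlap: 96.8, 107 and 113 CPM against 77.5, 79.9 and 84.2 CPM in wild-type mice, and 77.8 to 98.2 CPM against 51.7 to 73.8 CPM in T41B mice. Nalcn fell by 0.31 (SE 0.10), 0.35 (SE 0.10), 0.39 (SE 0.12) and 0.48 (SE 0.09) in log2 units in the order given, with adjusted edgeR p of 0.043, 0.013, 0.035 and 0.000207. It was lower in the stimulated slice of 13 of 14 mice. With the mouse as a block it was not called in BD10-2-treated wild-type mice (adjusted edgeR p 0.0966), and in neither wild-type comparison was it called in any of the 4 runs that left out a mouse.

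Scn1a (ENSMUSG00000064329, chr2:66270778-66440840, minus strand), the alpha subunit abundant in fast-spiking inhibitory neurons, fell in both BD10-2 comparisons. In wild-type mice it was at 128, 138 and 162 CPM in sham and 96.6, 105 and 113 CPM in stimulated slices, a fall of 0.44 (SE 0.14, adjusted edgeR p 0.0491). In T41B mice it was at 109, 99, 96.3, 89.3 and 92 CPM in sham and 68.9, 60.9, 75, 72.2 and 88.4 CPM in stimulated slices, a fall of 0.41 (SE 0.11, adjusted edgeR p 0.00735). Neither pair of groups overlapped. The wild-type call was not made with the mouse as a block (adjusted edgeR p 0.0656). Its log2 fold changes with vehicle were not called. The other alpha subunits Scn2a, Scn3a and Scn8a and the beta subunits Scn3b and Scn4b were not called in any theta-burst comparison, with log2 fold changes from -0.47 to 0.09. Scn3b, though not called, was lower in the stimulated slice of 14 of 14 mice, with a median within-mouse log2 difference of -0.37.

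Among potassium channels, Kcna2 (ENSMUSG00000040724, chr3:107101146-107115005, plus strand) encodes Kv1.2, an axonal channel that holds back repeated firing. It was at 235, 218, 233 and 222 CPM in sham and 170, 156, 177 and 162 CPM in stimulated slices of vehicle-treated wild-type mice. With vehicle, T41B mice had 181, 139, 143 and 178 CPM against 124, 104, 129 and 150 CPM. The wild-type groups stood apart and the T41B groups overlapped. With BD10-2, wild-type mice had 205, 210 and 259 CPM against 134, 149 and 167 CPM, and T41B mice had 191, 170, 174, 160 and 170 CPM against 108, 102, 123, 119 and 135 CPM, each without overlap. Kcna2 fell by 0.45 (SE 0.11), 0.34 (SE 0.11), 0.58 (SE 0.12) and 0.56 (SE 0.09) in log2 units in that order, with adjusted edgeR p of 0.00389, 0.0205, 0.00172 and 4.01e-05. It was lower in the stimulated slice of 14 of 14 mice.

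Kcnh1 (ENSMUSG00000058248, chr1:192190774-192510159, plus strand), the ether-à-go-go channel Kv10.1, was at 66.7, 67, 65.5 and 60.9 CPM in sham and 50.8, 48, 55.1 and 47.4 CPM in stimulated slices of vehicle-treated wild-type mice, without overlap. Its fall was 0.37 (SE 0.10, adjusted edgeR p 0.0121). In T41B mice it fell by 0.39 with vehicle (SE 0.10, adjusted edgeR p 0.00468), where groups overlapped, and by 0.46 with BD10-2 (SE 0.09, adjusted edgeR p 0.00022), from 57.9 to 70 CPM in sham to 40.7 to 53.9 CPM in stimulated slices. In BD10-2-treated wild-type mice it was at 60.9 to 65.9 CPM in sham and 50.8 to 57.4 CPM in stimulated slices and was not called.

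Kcnb2, a delayed rectifier of the Kv2 family, fell in vehicle-treated wild-type mice, from 55.1, 59.9, 53.6 and 41.6 CPM to 40, 42.6, 37.9 and 30.8 CPM (log2 fold change -0.47, SE 0.11, adjusted edgeR p 0.00531). These groups overlapped by 1 sample. It also fell in BD10-2-treated T41B mice, from 36.6 to 46.5 CPM to 24.7 to 35.9 CPM (log2 fold change -0.44, SE 0.10, adjusted edgeR p 0.00214). Kcnc2, a fast Kv3 channel of inhibitory neurons, fell in BD10-2-treated wild-type mice, from 69.3, 73.4 and 86.2 CPM to 43.7, 52.7 and 49.1 CPM (log2 fold change -0.65, SE 0.19, adjusted edgeR p 0.0265). With the mouse as a block it was not called there (adjusted edgeR p 0.0786). It was lower in the stimulated slice of 13 of 14 mice over all groups. Kcna6 fell in vehicle-treated T41B mice by 0.27 (SE 0.09, adjusted edgeR p 0.0345). The other 11 potassium members, Kcna1, Kcna3, Kcna4, Kcnab1, Kcnab2, Kcnc1, Kcnd2, Kcnd3, Kcnq3, Kcnq5 and Kcnh7, were not called.

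Among calcium channels, 1 of 11 members was called. Cacnb4 (ENSMUSG00000017412, chr2:52428320-52676831, minus strand) encodes the cytoplasmic beta4 subunit, which carries channels to the membrane. Its values in vehicle-treated T41B mice were 91.1, 78.4, 96.5 and 102 CPM in sham and 71.1, 67.3, 74 and 80.8 CPM in stimulated slices. In BD10-2-treated wild-type mice they were 113, 124 and 127 CPM against 89.8, 83.8 and 97.1 CPM. In BD10-2-treated T41B mice they were 105, 110, 105, 74.7 and 82.7 CPM against 74.9, 58.9, 65.5, 65.7 and 75.8 CPM. Of these 3 pairs both T41B pairs overlapped and the wild-type pair did not. The remaining pair, wild-type with vehicle, overlapped at 106 to 132 CPM in sham and 93.5 to 114 CPM in stimulated slices, and Cacnb4 was not called there. Cacnb4 fell by 0.33 (SE 0.11), 0.42 (SE 0.13) and 0.49 (SE 0.10) in log2 units in the 3 called comparisons, with adjusted edgeR p of 0.0295, 0.031 and 0.000399. The wild-type call was not made with the mouse as a block (adjusted edgeR p 0.0655). The pore-forming subunits Cacna1a, Cacna1b, Cacna1c, Cacna1d, Cacna1e, Cacna1g, Cacna1h and Cacna1i and the alpha2delta subunits Cacna2d1 and Cacna2d3 were not called.

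HCN channels parted. Hcn2, the more abundant of both members, had log2 fold changes between -0.03 and 0.03 and was not called. Hcn4 (ENSMUSG00000032338, chr9:58823412-58863175, plus strand), the pacemaker channel best known from the sinoatrial node, was at 1.94, 0.987, 1.22 and 1.94 CPM in sham slices of vehicle-treated T41B mice and at 5.41, 5.9, 12.9 and 10.1 CPM after theta burst. In BD10-2-treated T41B mice it was at 2.29, 3.16, 3.06, 1.24 and 1.54 CPM in sham and at 12, 13.7, 9.84, 9.1 and 7.36 CPM in stimulated slices. All 9 stimulated T41B samples lay above all 9 sham samples. Hcn4 rose by 2.50 (SE 0.30, adjusted edgeR p 3.89e-07) and 2.18 (SE 0.26, adjusted edgeR p 1.41e-07) on the log2 scale.

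In wild-type mice Hcn4 was at 2.73, 1.73, 2.77 and 3.35 CPM in sham and 4.26, 3.8, 3.07 and 3.26 CPM in stimulated slices with vehicle, which overlapped (log2 fold change 0.44, SE 0.30, adjusted edgeR p 0.369). With BD10-2 it was at 1.57, 1.31 and 2.27 CPM against 3, 3.1 and 4.08 CPM, without overlap and not called (log2 fold change 1.0, SE 0.34, adjusted edgeR p 0.0626). DESeq2 called it there (adjusted p 0.037), as did edgeR with libraries scaled on neuronal genes (adjusted p = 0.0169). The difference between genotypes in the response of Hcn4 was 2.06 with vehicle (SE 0.42, unadjusted p = 3.56e-05, adjusted edgeR p 0.313) and 1.17 with BD10-2 (SE 0.43, adjusted edgeR p 0.843). edgeR called 0 of 19478 genes in the vehicle interaction (0.0%; 1683 genes had an unadjusted p under 0.05, 3 of them members) and 0.0% in the BD10-2 interaction (846 genes, 1 member). DESeq2 called 1 gene in the vehicle interaction, Hcn4 (log2 fold change 2.09, adjusted p = 0.0169), and 20 genes, none a member, in the BD10-2 interaction. With the mouse as a block edgeR called 3 genes in the vehicle interaction, none a member (Hcn4 2.01, SE 0.36, adjusted edgeR p 0.127), and 0 in the BD10-2 interaction, where 1224 genes had an unadjusted p under 0.05.

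The summed level of 5 endothelial markers was 36.6 to 109 CPM in sham and 125 to 235 CPM in stimulated slices of vehicle-treated T41B mice, and 72.6 to 156 CPM against 98.7 to 231 CPM with BD10-2. The marker sum of microglia (8 genes) was lower in the same stimulated slices, at 350 to 530 CPM against 593 to 1160 CPM and at 507 to 748 CPM against 746 to 1050 CPM. In wild-type mice, where Hcn4 was not called, the endothelial sum was 92.2 to 114 CPM against 25.2 to 221 CPM with vehicle and 87.8 to 108 CPM against 116 to 186 CPM with BD10-2. Single endothelial markers went both ways. Cdh5 rose in all 4 comparisons, by 1.54 and 1.84 in wild-type mice and by 2.62 and 2.04 in T41B mice (vehicle, then BD10-2). Pecam1 rose in T41B mice, by 1.37 and 0.93. Tek fell by 1.03 in vehicle-treated wild-type mice (adjusted edgeR p 0.0454) and by 0.96 in BD10-2-treated T41B mice (adjusted edgeR p 0.0228). The part of these markers in the Hcn4 result was not tested. In the Mouse1592 library with low Thy1, Hcn4 was 3.01 CPM against 10.8 CPM in its partner, and without it the same calls were made in T41B mice.

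**Figure D2:**
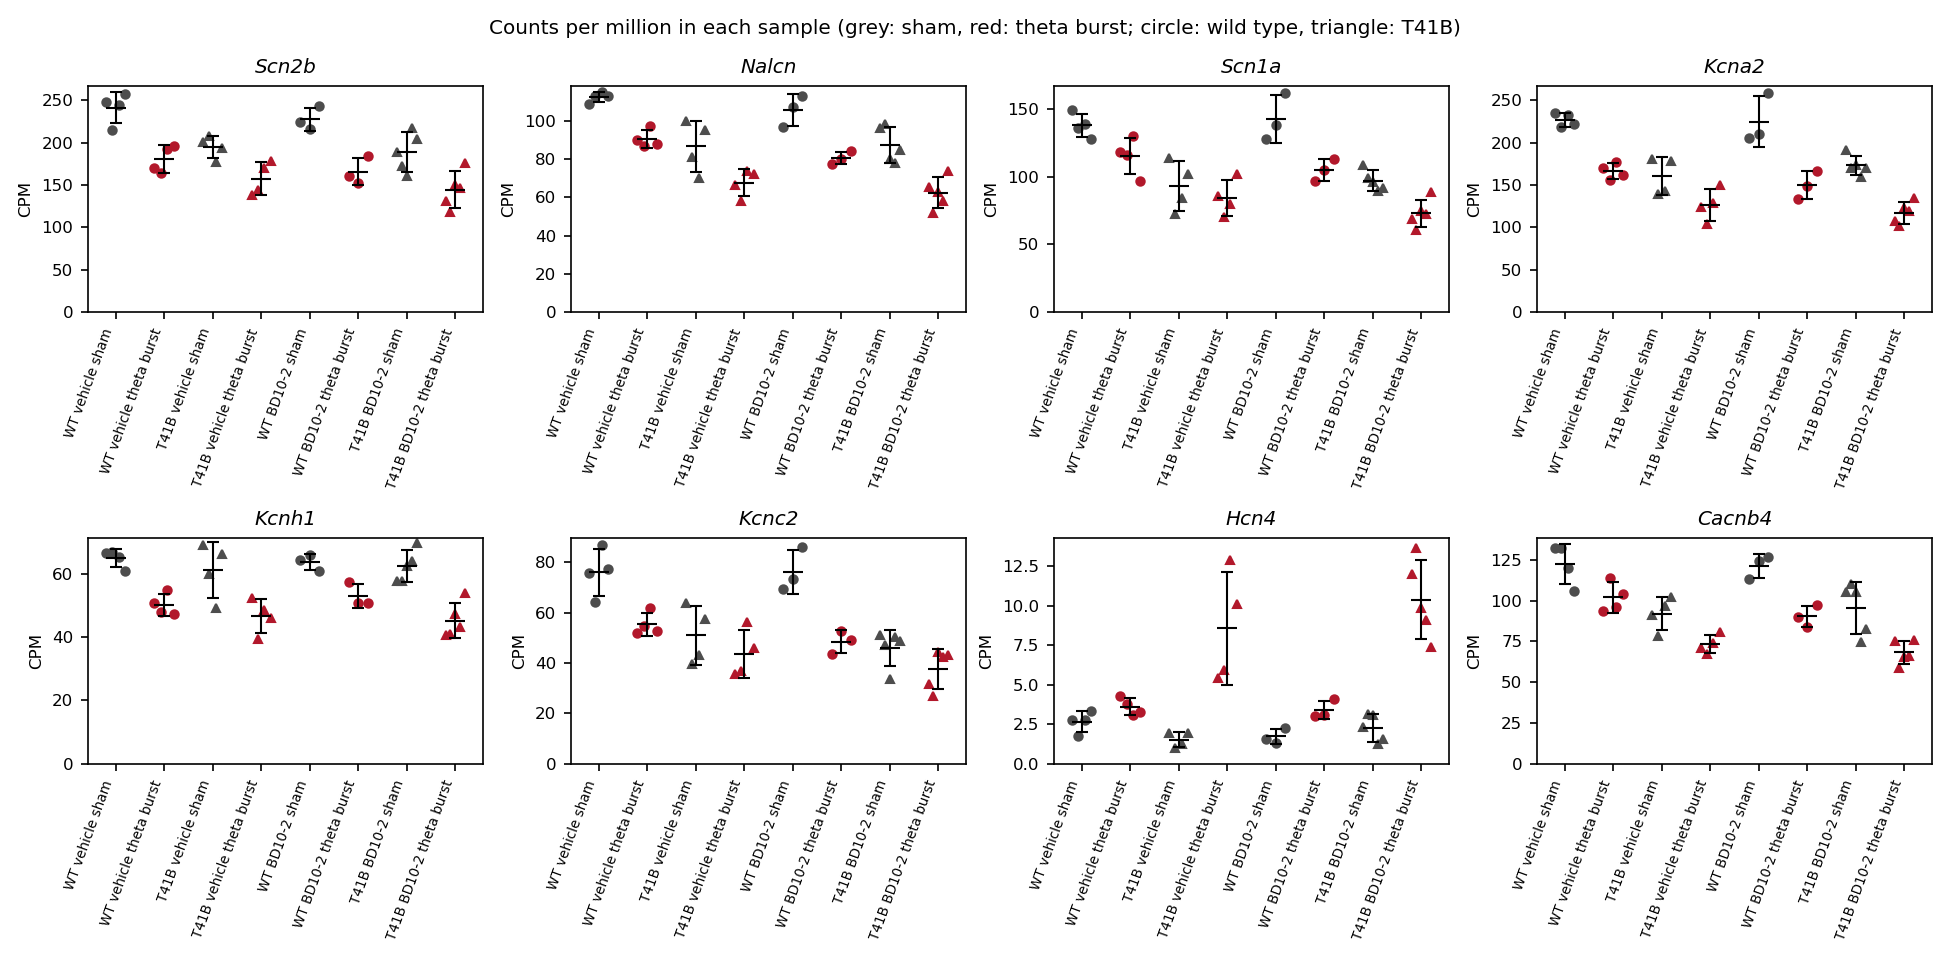
CPM of 8 members in each of 32 samples by group (grey sham, red theta burst, circles wild type, triangles T41B; bars are mean and SD). Scn2b, Nalcn, Kcna2 and Cacnb4 step down in group mean from sham to theta burst and from wild type to T41B, while Hcn4 is at 5.41 CPM or more only in stimulated T41B slices. The genotype step of Scn2b was not called in any comparison.

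Slices of the same mouse could be set against each other in 14 mice. Kcna2, Scn2b, Kcnb2, Kcnh1, Cacnb4 and Scn3b were lower in the stimulated slice of all 14, and Hcn4 was higher in 13. The median within-mouse log2 difference was -0.46 for Kcna2, -0.42 for Scn2b, -0.41 for Kcnb2, -0.40 for Kcnh1 and -0.34 for Cacnb4, and 1.70 for Hcn4. Kcnab2 and Kcna4 split nearly evenly, lower in 6 and 7 mice. With the mouse as a block, 12 members fell in vehicle-treated wild-type mice in place of 5, now with Scn1a (-0.27), Kcnc1 (-0.32) and Kcnc2 (-0.45), while the share of all genes that fell went from 4.1% to 8.49%. In BD10-2-treated wild-type mice 3 fell in place of 6, and of all genes 1.91% in place of 2.58%. There Nalcn, Scn1a, Kcnc2 and Cacnb4 were not called with the block (adjusted edgeR p 0.0966, 0.0656, 0.0786 and 0.0655), and Kcnb2 was (-0.40).

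**Figure D3:**
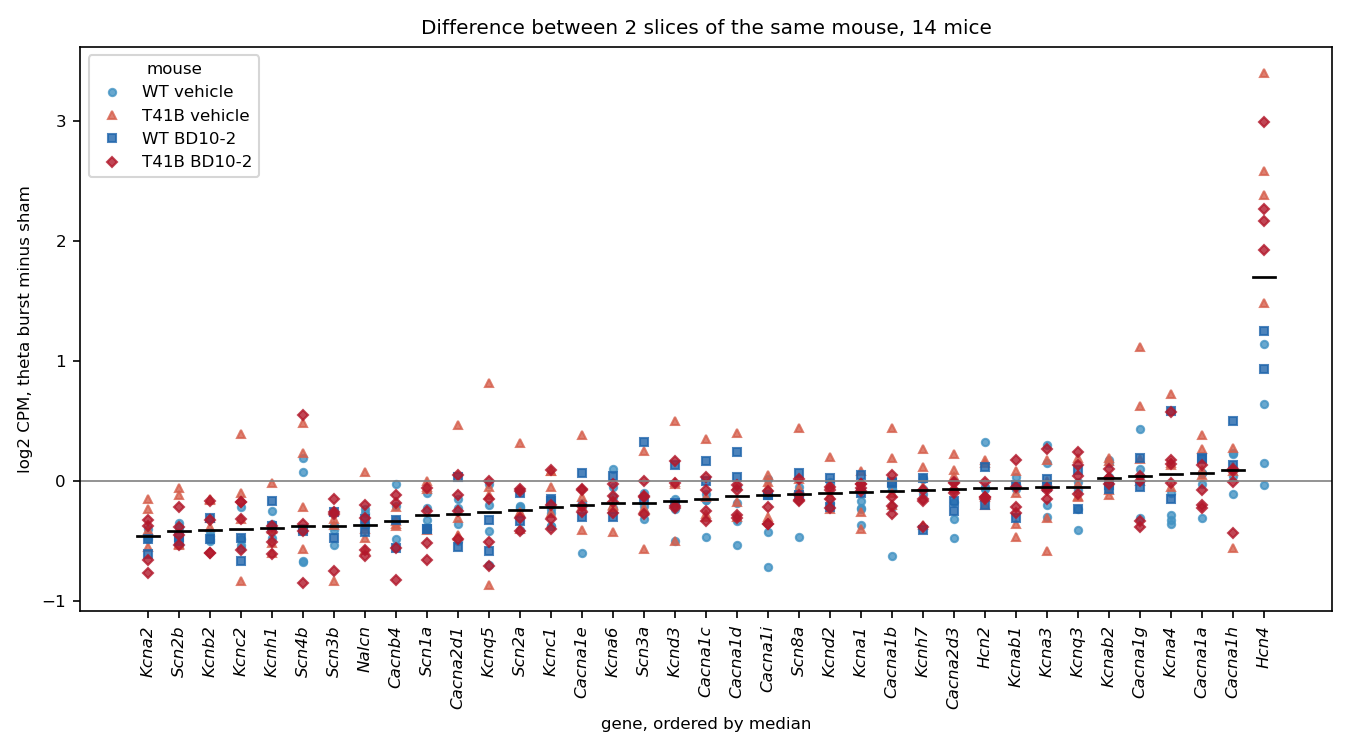
Log2 CPM difference between the stimulated and the sham slice of each of 14 mice (points, by genotype and treatment) for the 37 members, ordered by median (black bars). Kcna2 and Scn2b lie below zero in every mouse, and Hcn4 reaches a median of 1.70.

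Counts of called members moved with single mice. In vehicle-treated wild-type mice 2 members were called without Mouse1509 and 3 without Mouse1513. In vehicle-treated T41B mice 3 were called without Mouse1510 or Mouse1551. In BD10-2-treated wild-type mice, with 3 mice a group, 1 was called without Mouse1565, Mouse1571 or Mouse1590 and 2 without Mouse1586, and Kcna2 was called in each of these 4 runs. Without samples of Ttr over 50 CPM, 3 members were called in vehicle-treated wild-type mice and 3 in vehicle-treated T41B mice. Of 25 calls of the named members, 13 were made in every run that left out a mouse, and these include all 8 calls in BD10-2-treated T41B mice. Of the 26 calls by genotype, described next, 7 were.

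Markers of cell types moved in the same comparisons. Of 20 pan-neuronal markers, 1, 1, 2 and 6 fell with theta burst in the 4 comparisons (order as above), none rose, and their median log2 fold changes were -0.14, -0.20, -0.31 and -0.23. Of 5 excitatory markers 0, 2, 2 and 2 fell (Neurod6 and Nrn1 each time) and none rose, and of 8 inhibitory markers 0, 0, 1 and 1 fell and 0, 0, 0 and 1 rose. Gad2, an enzyme of GABA synthesis, fell by 0.53 (SE 0.16, adjusted edgeR p 0.0346) in BD10-2-treated wild-type mice, where Scn1a and Kcnc2 also fell. In BD10-2-treated T41B mice, where Scn1a fell as well, Gad2 was not called, Vip fell by 0.89 and Npy rose by 0.95. Of 8 microglia markers 5, 6, 5 and 4 fell and none rose, with summed levels of 258 to 337 CPM in sham and 120 to 208 CPM in stimulated slices of vehicle-treated wild-type mice. Of 7 astrocyte markers 3, 4, 0 and 3 rose and none fell, with sums of 6340 to 7110 CPM against 7100 to 8780 CPM in the same mice. The sum of 4 CA3 markers, none of which was called, was 1130 to 1270 CPM against 882 to 1110 CPM there. In vehicle-treated T41B mice 3 of 4 dentate gyrus markers fell, Dsp by 1.01, Tdo2 by 0.94 and C1ql2 by 0.80, and their list summed to 221 to 442 CPM in sham and 188 to 220 CPM in stimulated slices, without overlap. Of 4 CA1 markers, Fibcd1 rose there (0.43), and Fibcd1 and Man1a rose in BD10-2-treated T41B mice (0.38 and 0.33). Among oligodendrocyte precursor markers, Cspg4 fell in both wild-type comparisons (-0.60 and -0.52) and in BD10-2-treated T41B mice (-0.38). Pdgfra fell in both T41B comparisons (-0.43 and -0.52) and Olig1 in vehicle-treated T41B mice (-0.59). The part of these lists in the channel results was not tested. In bulk tissue fewer cells of a type and less RNA per cell cannot be told apart. With libraries scaled on the pan-neuronal markers, the median log2 fold change of all genes moved to 0.14, 0.14, 0.25 and 0.21. The members' median became -0.11, 0.07, 0.15 and 0.09, so its sign differed in 3 of the 4 comparisons while it lay below the all-gene median in each. On this scale Kcna2 (-0.31, adjusted edgeR p 0.0455) and Scn2b (-0.27, adjusted edgeR p 0.0469) fell in vehicle-treated wild-type mice, and Kcna2 (-0.32, adjusted edgeR p 0.00694) in BD10-2-treated T41B mice. Higher calls were those of Hcn4 in both T41B comparisons (2.64 and 2.46) and in BD10-2-treated wild-type mice (1.25), of Cacna1g in vehicle-treated T41B mice (0.61, adjusted edgeR p 0.0142) and of Kcnab2 in BD10-2-treated T41B mice (0.30, adjusted edgeR p 0.0372). Of all genes 0.714%, 1.85%, 0.58% and 1.81% fell on this scale. The other falls of the named members kept their sign and were not called.

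The second comparison set T41B against wild-type mice. Scn1a and Kcna2 were lower in T41B slices in all 4 combinations of treatment and procedure. Nalcn and Cacnb4 were lower in 3, Kcnc2 and Cacna2d3 in both sham comparisons, and Hcn4 was higher in both theta-burst comparisons. In the order sham vehicle, theta-burst vehicle, sham BD10-2 and theta-burst BD10-2, 33, 31, 34 and 34 of 37 members had negative fold changes, where 49.7%, 54.6%, 48.8% and 52.9% of all genes did. With libraries scaled on pan-neuronal markers 67.6%, 21.6%, 59.5% and 81.1% of the members were negative, beside 27.1%, 19.9%, 22.8% and 27.4% of all genes.

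In sham slices with vehicle 10 members were lower and none higher, against 1.24% and 5.0% of all genes. After theta burst with vehicle 4 were lower and 1 higher, against 1.05% and 4.74%. In sham slices with BD10-2 4 were lower and none higher, against 1.14% and 4.31%. In stimulated slices with BD10-2 6 were lower and 1 higher, against 2.36% and 8.19%. The lower share was 27%, 10.8%, 10.8% and 16.2% of the members, which were chosen with earlier results of these data known. Their median log2 fold change was -0.31, -0.10, -0.26 and -0.27, beside 0.00, -0.03, 0.01 and -0.02 over all genes. Over the 4 comparisons 12 members were lower at least once, and 6 of these also fell with theta burst.

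Scn1a was at 149, 136, 139 and 128 CPM in sham slices of vehicle-treated wild-type mice and at 114, 72.8, 84 and 102 CPM in those of T41B mice. The groups did not overlap, and the log2 fold change was -0.57 (SE 0.12, adjusted edgeR p 0.00425). After theta burst it was at 118, 116, 130 and 97.1 CPM against 86.1, 70.1, 79.9 and 102 CPM, where 1 sample of each group crossed (-0.45, SE 0.12, adjusted edgeR p 0.0263). With BD10-2 neither pair overlapped: sham slices had 128 to 162 CPM against 89.3 to 109 CPM (-0.55, SE 0.13, adjusted edgeR p 0.00641), and stimulated slices 96.6 to 113 CPM against 60.9 to 88.4 CPM (-0.52, SE 0.13, adjusted edgeR p 0.00609).

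The other sodium members moved less widely. Nalcn was lower by 0.38 in sham slices with vehicle (SE 0.10, adjusted edgeR p 0.0237), by 0.42 after theta burst with vehicle (SE 0.10, adjusted edgeR p 0.0109) and by 0.37 after theta burst with BD10-2 (SE 0.11, adjusted edgeR p 0.0212), each without overlap. Scn2a, the main alpha subunit of excitatory axons, was at 450, 465, 481 and 430 CPM in wild-type and 416, 334, 267 and 397 CPM in T41B sham slices with vehicle (-0.37, SE 0.11, adjusted edgeR p 0.0396). Scn8a, the alpha subunit of mature axon initial segments, was at 632, 563 and 585 CPM in wild-type and 435, 408, 499, 512 and 543 CPM in T41B stimulated slices with BD10-2 (-0.31, SE 0.10, adjusted edgeR p 0.0492). Scn3a and the beta subunits Scn2b, Scn3b and Scn4b were not called.

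Kcna2 was at 218 to 235 CPM in wild-type and 139 to 181 CPM in T41B sham slices with vehicle, without overlap (-0.51, SE 0.11, adjusted edgeR p 0.00251). After theta burst with vehicle it was at 156 to 177 CPM against 104 to 150 CPM, again without overlap (-0.39, SE 0.11, adjusted edgeR p 0.0212). With BD10-2 the sham groups stood apart (205 to 259 CPM against 160 to 191 CPM; -0.38, SE 0.11, adjusted edgeR p 0.0332) and the stimulated groups overlapped (134 to 167 CPM against 102 to 135 CPM; -0.35, SE 0.11, adjusted edgeR p 0.0302). By group mean, wild-type sham slices were thus highest and stimulated T41B slices lowest under either treatment.

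Kcnc2 was at 75.8, 64.1, 86.9 and 77.2 CPM in wild-type and 63.8, 39.5, 43 and 57.5 CPM in T41B sham slices with vehicle (-0.58, SE 0.16, adjusted edgeR p 0.0307). With BD10-2 the sham values were 69.3, 73.4 and 86.2 CPM against 51, 47.1, 33.5, 50.2 and 48.7 CPM (-0.73, SE 0.17, adjusted edgeR p 0.00639). Neither pair of groups overlapped. The Kv3 relative Kcnc1 was at 182 to 222 CPM against 132 to 172 CPM in sham slices with vehicle (-0.42, SE 0.11, adjusted edgeR p 0.0216), and Kcnb2 at 41.6 to 59.9 CPM against 35.1 to 45.6 CPM (-0.37, SE 0.11, adjusted edgeR p 0.0459). The other 12 potassium members were not called in any genotype comparison.

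Kcnc1, Kcnc2 and Scn1a are known from inhibitory neurons. The 8 inhibitory markers had a summed level of 261 to 351 CPM in wild-type and 202 to 255 CPM in T41B sham slices with vehicle, and 292 to 342 CPM against 192 to 219 CPM with BD10-2. None, 2, 3 and none of the 8 were called lower in the 4 genotype comparisons, in the order above. Their part in the channel results was not tested.

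Among calcium channels Cacnb4 was at 132, 132, 120 and 106 CPM in wild-type and 91.1, 78.4, 96.5 and 102 CPM in T41B sham slices with vehicle (-0.41, SE 0.11, adjusted edgeR p 0.0195). It was also lower after theta burst, by 0.47 with vehicle (SE 0.11, adjusted edgeR p 0.00623) and by 0.40 with BD10-2 (SE 0.11, adjusted edgeR p 0.0158). None of these 3 pairs of groups overlapped. Cacna2d3, an alpha2delta subunit that promotes surface expression of the channel, was at 115 to 137 CPM against 75.6 to 94.9 CPM in sham slices with vehicle (-0.50, SE 0.10, adjusted edgeR p 0.00175) and at 117 to 135 CPM against 82.3 to 99.2 CPM with BD10-2 (-0.44, SE 0.10, adjusted edgeR p 0.00678). The T-type channel Cacna1i was lower by 0.47 in sham slices with vehicle (SE 0.14, adjusted edgeR p 0.0415), with overlap. The P/Q-type channel Cacna1a, the main channel of transmitter release, was lower by 0.40 after theta burst with BD10-2 (SE 0.13, adjusted edgeR p 0.0455), with overlap. The other 7 calcium members were not called.

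Hcn4 was the sole member called higher in T41B mice, although with libraries scaled on pan-neuronal markers Kcna3 was called higher too, in sham slices with BD10-2. In stimulated slices it was higher by 1.25 with vehicle (SE 0.28, adjusted edgeR p 0.0047) and by 1.6 with BD10-2 (SE 0.30, adjusted edgeR p 0.000335), without overlap in either. In sham slices its log2 fold changes were -0.81 (SE 0.32, adjusted edgeR p 0.133) and 0.43 (SE 0.32, adjusted edgeR p 0.494), with overlap in both. Hcn2 was not called.

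Genotypes could be compared within a batch in 4 of the 8 labelled batches, in 7 settings of batch and procedure with 1 or 2 mice a group and no test. Sham and stimulated settings of a batch share mice, so the 7 settings are not independent. Kcna2 was lower in T41B mice in 7 of 7 (log2 differences from -0.61 to -0.11), as were Nalcn (-0.55 to -0.20), Cacnb4 (-0.66 to -0.05) and Kcnc2 (-0.82 to -0.15). Scn1a was lower in 6 of 7 (-0.81 to 0.07). Hcn4 was higher in T41B mice in the 3 stimulated settings (0.82, 1.63 and 1.63) and lower in the 4 sham settings. With batch as a covariate, 3 members in place of 10 were lower in sham slices with vehicle, and none in place of 4 after theta burst with vehicle, where Hcn4 stayed called higher. Of all genes 0.108% in place of 1.24% and 0.842% in place of 1.05% were lower in that fit.

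Single mice bore on these counts too. In sham slices with vehicle 3 members were called without Mouse1509 or Mouse1551, 4 without Mouse1553, 5 without Mouse1522, 6 without Mouse1513 and up to 14 in other runs, and Scn1a, Kcna2 and Cacna2d3 were called in all 8 runs. In the other 3 comparisons Kcna2 was called in 4, 2 and 4 of 8 runs (highest adjusted edgeR p 0.114, 0.264 and 0.148) and Scn1a in 3, 7 and 8. Cacna2d3 was called in 7 of 8 in sham slices with BD10-2. In stimulated slices with vehicle 3 were called without Mouse1509 and 2 without Mouse1522 or Mouse1551. In sham slices with BD10-2 none was called without Mouse1590. In stimulated slices with BD10-2 2 were called without Mouse1564, 3 without Mouse1565 or Mouse1571 and 4 without Mouse1586. Without the 6 samples of Ttr over 50 CPM, which leaves 2 slices in 3 of the 4 vehicle groups, edgeR called 0 members in either vehicle comparison.

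Other cell types also differed by genotype in these samples. All 8 microglia markers, summing to 258 to 337 CPM in wild-type and 593 to 1160 CPM in T41B sham slices with vehicle, were higher in T41B mice in 3 of the 4 comparisons and 6 of 8 after theta burst with vehicle, and of 7 astrocyte markers 2, 2, 2 and 5 were higher. Of the 20 pan-neuronal markers 1, 2, 0 and 0 were lower, with medians of -0.12, -0.20, -0.19 and -0.13. The part of these lists in the channel results was not tested. Scaling on the pan-neuronal markers moved the all-gene median to 0.18, 0.19, 0.20 and 0.16 and the members' median to -0.12, 0.11, -0.08 and -0.12, so that its sign differed after theta burst with vehicle while it lay below the all-gene median in each comparison. On this scale Kcna2 (-0.33, adjusted edgeR p 0.0271) and Scn1a (-0.40, adjusted edgeR p 0.0428) were lower in sham slices with vehicle, Kcnc2 (-0.53, adjusted edgeR p 0.0185) in sham slices with BD10-2, and Hcn4 was higher in both theta-burst comparisons (1.40 and 1.84), as was Kcna3 in sham slices with BD10-2 (0.57, adjusted edgeR p 0.0236). Of all genes 0.175%, 0.103%, 0.103% and 0.077% were lower on this scale. The other 21 calls of named members were not made.

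**Figure D4:**
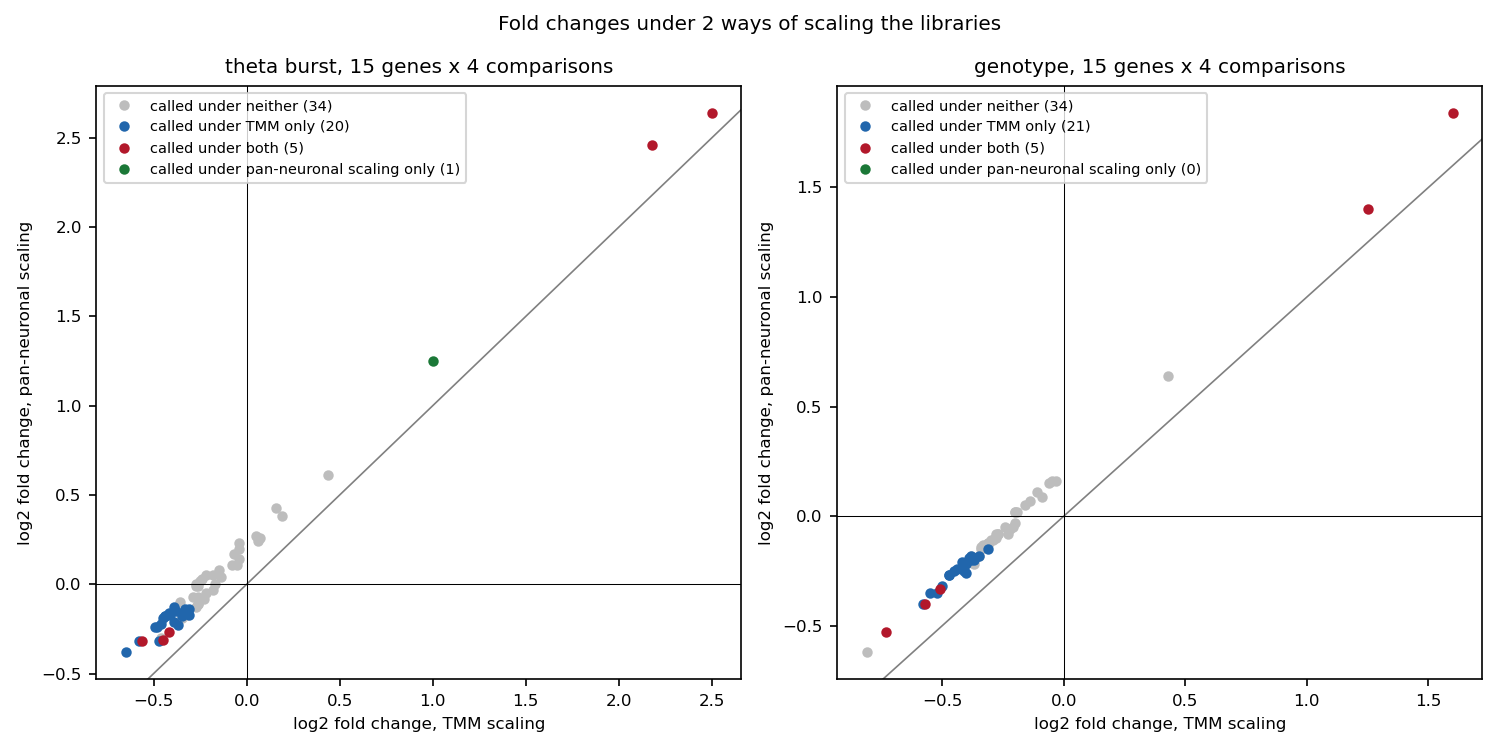
Log2 fold changes of the 15 named members under TMM scaling (horizontal) and under scaling on 20 pan-neuronal markers (vertical), for theta burst (left) and genotype (right), with the line of equality in grey. Points lie above the line; 5 calls in each panel are made under both scalings, and 20 and 21 under TMM alone.

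The third comparison set BD10-2 against vehicle. Because no batch held both treatments, an effect of BD10-2 and one of batch cannot be told apart. edgeR called 0.0% of the 19478 genes and none of the members in sham wild-type slices (374 genes and 0 members with an unadjusted p under 0.05), 0.0% in stimulated wild-type slices (1093 and 2), 0.0% in sham T41B slices (431 and 0) and 0.0% in stimulated T41B slices (759 and 1). DESeq2 called 25 genes in stimulated wild-type slices and none in the other 3, and no member in any. Log2 fold changes of the members ran from -0.64 to 0.20, from -0.37 to 0.43, from -0.19 to 0.60 and from -0.30 to 0.28 in the same order. Kcna2, for example, was at 227 ± 8.53 CPM with vehicle (SD, n = 4) and 225 ± 29.8 CPM with BD10-2 (SD, n = 3) in sham wild-type slices. The difference in theta-burst response between BD10-2 and vehicle in T41B mice was called for 0.0% of genes (526 genes and 0 members with an unadjusted p under 0.05), and DESeq2 called 1 gene, which was no member. An adjusted p over the threshold does not show that the treatments act alike at these group sizes.

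Other genes of the same families were also counted. Of 43 further voltage-gated channel genes 38 were tested, and with theta burst 3, 3, 3 and 4 rose and 1, 3, 1 and 6 fell. The share that fell was 2.63%, 7.89%, 2.63% and 15.8%, near or below that of all genes except in BD10-2-treated T41B mice. The share that rose was 7.89%, 7.89%, 7.89% and 10.5%, below that of all genes except in BD10-2-treated wild-type mice. Scn4a and Scn11a, which encode the Nav1.4 channel of skeletal muscle and the Nav1.9 channel of sensory neurons, rose in all 4 comparisons from very low levels. Scn4a was at 0.108 ± 0.0524 CPM in sham and 1.09 ± 0.594 CPM in stimulated slices of vehicle-treated wild-type mice (SD, n = 4). It rose there by 3.28 in log2 units (SE 0.62, adjusted edgeR p 0.000379) and in the other comparisons by 2.43, 3.65 and 1.6. In vehicle-treated wild-type mice Scn11a had 0 counts in 4 sham samples and 69 in 4 stimulated samples, at least 17.8-fold higher when sham is set to 3 counts over the group. The 95% lower limit on that ratio of counts, without the floor, was 14.1. In the others it had 70 counts against 1 (ratio 69.4, 95% interval 12.1 to 2780), 51 against 2 (29.2, 7.67 to 247) and 57 against 2 (27.8, 7.34 to 235), intervals that cover counting error only. Kcnq1, a potassium channel of heart and epithelia, rose with theta burst in T41B mice with either treatment, by 2.03 (SE 0.58, adjusted edgeR p 0.0118) and 2.33 (SE 0.49, adjusted edgeR p 0.000678). Its levels were low, with means of 0.226 CPM in sham and 0.906 CPM in stimulated T41B slices with vehicle. In wild-type mice its changes of 1.28 and 1.87 were not called (adjusted edgeR p 0.181 and 0.065). The difference between genotypes in its response was not called with either treatment.

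By genotype, 0, 0, 1 and 0 of these 38 were higher and 2, 0, 1 and 3 lower. The lower share was 5.26%, 0.0%, 2.63% and 7.89%, against 1.24%, 1.05%, 1.14% and 2.36% of all genes. Channel partners, 23 of 25 listed genes tested, fell in 1, 4, 2 and 5 cases with theta burst and rose in none. These are 4.35%, 17.4%, 8.7% and 21.7%, against 4.1%, 9.83%, 2.58% and 9.52% of all genes. Fgf14, an intracellular partner of sodium channels at the axon initial segment, fell in all 4, by 0.36, 0.50, 0.47 and 0.53 (adjusted edgeR p 0.0352, 0.00215, 0.0204 and 0.000247). Its relative Fgf12 fell in 3, by 0.47, 0.52 and 0.59. In T41B mice 2, 1, 1 and 6 partners were lower (8.7%, 4.35%, 4.35% and 26.1%) and none higher. Of 8 calcium-activated potassium channel genes 1, 1, 0 and 0 fell with theta burst and 2, 0, 2 and 0 were lower in T41B mice. Kcnn2, a small-conductance channel, was lower in T41B sham slices by 0.33 with vehicle (SE 0.10, adjusted edgeR p 0.0478) and by 0.53 with BD10-2 (SE 0.10, adjusted edgeR p 0.0012). Cntnap2, a partner that clusters Kv1 channels on axons, was lower there by 0.41 (SE 0.11, adjusted edgeR p 0.0203) and 0.51 (SE 0.11, adjusted edgeR p 0.00369). Kcnv1, a silent potassium channel subunit, fell with theta burst in wild-type mice by 0.45 with vehicle and 0.61 with BD10-2 (adjusted edgeR p 0.0412 and 0.0205). Cacna2d4, an alpha2delta subunit, was higher in T41B sham slices with BD10-2 by 1.1 (SE 0.33, adjusted edgeR p 0.0449).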

How the data were processed

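Ribosome-depleted, strand-marked RNA libraries (KAPA RiboErase kit, 200 ng of total RNA) were made from the slices, per the labels' protocols. The authors deposited a table of expected counts for 55421 genes, which RSEM estimates and which need not be whole (5.69% of cells have decimals). The submitters' processing notes name cutadapt 1.8.1, STAR 2.7.6a, RSEM 1.3.1, featureCounts 1.6 and SAMtools 1.11, and the build GRCm38.p6. The annotation release and strand setting are not given in the sources used here, so reads from overlapping or antisense genes may not be told apart.

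Expected counts were rounded, and 36 libraries were reduced to 32 samples by summing the 4 pairs with the same mouse and slice label. Those pairs differed beyond counting noise (chi-square per degree of freedom 8.14 to 31.9, within the 6.93 to 77.4 of different mice in a group). Sample totals ran from 11597555 to 49652899. Genes passed edgeR's filterByExpr with a minimum count of 10, and 19478 were tested in 1 fit of 8 groups by edgeR 4.0.16 (quasi-likelihood F test, TMM scaling, R 4.3.3), with Benjamini-Hochberg adjustment over all of them. Fold changes are log2 values from that fit, and CPM uses TMM-scaled totals. The code was tested on simulated data. Slices of 1 mouse pair by the animal, and their residuals correlated (mean 0.29 over 14 pairs, range 0.05 to 0.55, against -0.08 for 52 pairs of other mice). Alternatives were DESeq2 1.42.0, RLE scaling, no filter, only the compared groups, the first same-label library, batch, mouse block, pan-neuronal scaling and leaving out each mouse. The members and lists were chosen with earlier results of these data known. Named in full were, per channel class and family of comparisons, up to 4 members a direction with the most calls, ties broken by mean absolute fold change. Of other lists up to 3 genes a direction were named. A gene that this rule picks is not reported here. The labels give no sex.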

Additional observations from a re-analysis of the deposited data

Results flagged for a closer look

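In 3 of 90 combinations of a named member and a group of 4 or 5 samples, 1 sample stood apart from the others of its group by Dixon's test at the 95% level, a number that chance alone can give. Cacna1a was at 281 CPM in the stimulated slice of vehicle-treated wild-type Mouse1524, where the other 3 samples lay at 345 to 357 CPM. Cacna2d3 was at 101 CPM in the stimulated slice of vehicle-treated T41B Mouse1510, where the others lay at 87.9 to 89.6 CPM. Kcnc2 was at 33.5 CPM in the sham slice of BD10-2-treated T41B Mouse1564, where the others lay at 47.1 to 51 CPM.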

How the results depend on the processing

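Counts of called members moved with several settings, as did calls of named members: of 1890 gene results under alternatives, 1617 kept their side of the threshold, 234 lost the call and 39 gained it. None of the 808 on a called value changed sign, and 41 of the 1082 on an uncalled value did, 22 of them under pan-neuronal scaling. For theta burst in vehicle-treated wild-type mice (5 called), DESeq2 called 8, pan-neuronal scaling 2, the batch covariate 11, the replicate block by mouse 12, and leaving out samples of Ttr over 50 CPM 3. The share of all genes that fell there, 4.1%, moved as well, to 5.21%, 0.714%, 6.6% and 8.49% in the first 4 of these. In vehicle-treated T41B mice (7), no filter gave 4, only the compared groups 1, pan-neuronal scaling 2 and leaving out Ttr samples 3. In BD10-2-treated wild-type mice (6), no filter, the first same-label library and the replicate block each gave 3, and pan-neuronal scaling 1. In BD10-2-treated T41B mice (8), pan-neuronal scaling gave 3. For genotype in sham slices with vehicle (10), only the compared groups gave 3, pan-neuronal scaling 2, the batch covariate 3 and leaving out Ttr samples 0. After theta burst with vehicle (5) these gave 3, 1, 1 and 0. In sham slices with BD10-2 (4), only the compared groups gave 10 and pan-neuronal scaling 2. After theta burst with BD10-2 (7), only the compared groups and the first same-label library each gave 4, and pan-neuronal scaling 1. In the vehicle interaction of genotype and theta burst (0), DESeq2 called 1. Leaving out each mouse in turn gave 2 to 4, 3 to 5, 1 to 2 and 8 to 9 calls for theta burst, 3 to 14, 2 to 5, 0 to 4 and 2 to 8 for genotype, in the same orders, and 0 in all BD10-2 and interaction comparisons. Under pan-neuronal scaling 0.58% to 1.85% of all genes fell in the other theta-burst comparisons, and 0.077% to 0.175% were lower by genotype. Fits on fewer samples or compared groups hold fewer degrees of freedom, and neither this nor any other cause of these moves was tested. Of the 51 calls of named members, 50 were made with DESeq2, 48 with RLE scaling, 51 without the low-Thy1 library of Mouse1592 and 10 with pan-neuronal scaling. The first same-label library kept 41, no filter 40, the batch covariate 37, only the compared groups 32 and leaving out the Ttr samples 29. The replicate block kept 21 of 25 theta-burst calls. Leaving out that library and the Ttr samples was chosen after seeing the data. Hcn4, the member with the fewest counts, has the widest errors.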

Other observations

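Kcne2, a small potassium channel subunit abundant in choroid plexus, was chosen after its values were seen. With vehicle, wild-type mice had Kcne2 at 0, 0.144, 0.0629 and 0.0577 CPM in sham and 3.57, 2.98, 0.821 and 0.184 CPM in stimulated slices. Its 2 highest values belong to Mouse1509 and Mouse1513, whose stimulated slices held Ttr over 50 CPM. With BD10-2, wild-type stimulated slices were at 0.443 to 0.689 CPM and sham slices at 0 to 0.104 CPM, without Ttr over 50 CPM in any. Kcne2 was called higher with theta burst in wild-type mice, by 4.79 with vehicle and 3.83 with BD10-2. It was also called higher in T41B mice, by 2.09 (adjusted edgeR p 0.0308) and 3.26 (adjusted edgeR p 0.00238).

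Kcnh4, a potassium channel of the ether-à-go-go family and likewise chosen after its values were seen, rose with theta burst in wild-type mice with vehicle and with BD10-2, from 4.25 to 5.34 CPM to 5.95 to 7.65 CPM and from 4.23 to 4.93 CPM to 7.10 to 8.10 CPM. In T41B mice its sham and stimulated values overlapped, and the difference between genotypes in that response was not called.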
